A study of Homo sapiens with 12 samples.

Results

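The genes described here encode laminins, other matrix glycoproteins and proteoglycans of the extracellular matrix. They were chosen as a list of 46 gene symbols, with earlier results of these data known. The symbols were matched to the Ensembl IDs of the count files through GENCODE release 44, and all 46 were found among 60617 genes. The list has 9 laminin chains, 4 nidogens and basement membrane proteoglycans, 15 microfibril and elastic fibre proteins, 14 genes for fibronectin and matricellular glycoproteins, and 4 interstitial proteoglycans. All 46 passed the filter on low counts, which kept genes averaging 1 count or more over the libraries and left 23041 genes for testing.

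Expression was measured by mRNA-seq in 12Z, an immortalized line of human endometriotic epithelial cells, in 4 groups of 3 libraries, each from an independent experiment according to the methods. The groups were pCAG Viperin plasmid with 100 nM insulin (Viperin + Insulin), pCAG Viperin plasmid with vehicle (Viperin), pCAG empty vector with 100 nM insulin (Insulin) and pCAG empty vector with vehicle (Control). Viperin, encoded by RSAD2, is an interferon-induced enzyme of the antiviral response. Cells of every group were transiently transfected with plasmid, held without serum for 4 h before insulin or vehicle was added, and collected 24 h later, so no group was untransfected or fed with serum. One label of the protocol names a pBabe empty vector, whereas the treatment labels and the methods give pCAG, and the name pCAG is used here. The design asks what Viperin overexpression (Viperin OE) and insulin each do to DGE in 12Z cells, and whether Viperin OE alters the response to insulin.

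The extracellular matrix of an epithelium has a basement membrane beneath the cells and an interstitial matrix beyond it. Laminins are trimers of an alpha, a beta and a gamma chain that polymerize into the basement membrane sheet and bind integrins and dystroglycan on the cell, while nidogens and perlecan connect the laminin sheet with the type IV collagen network. Fibrillins form the microfibrils on which elastin is laid down and to which fibulins and latent TGF-beta binding proteins (LTBPs) attach. Matricellular glycoproteins such as SPARC, tenascins and thrombospondins change how cells adhere to this scaffold, and small leucine-rich proteoglycans such as decorin and lumican bind collagen fibrils. Endometriotic lesions are embedded in remodelled, often fibrotic matrix.

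The libraries held 25979022 to 46889002 read pairs assigned to genes, and values are given as CPM, that is, counts scaled to a library of 1000000 with TMM factors. RSAD2 had 463 to 609 CPM in Viperin + Insulin libraries, 384 to 665 CPM in Viperin libraries, 3.01 to 5.19 CPM in Insulin libraries and 2.28 to 3.48 CPM in Control libraries. Reads mapping to more than 1 place made up 13.9% of Control library 1 and 12.1% of Viperin library 3, against 9.44% to 11.0% of the other 10 libraries. Control library 1 also held the highest of the 3 Control values for 37 of the 46 genes, so results against Control are given with and without it. Keratin genes KRT8, KRT18 and KRT19 were abundant, with group means of 457 to 1366 CPM, but the epithelial genes EPCAM and CDH1 had group means of 0.290 to 1.50 CPM. The fibroblast collagen genes COL1A1, COL1A2 and COL3A1 had group means of 438 to 1723 CPM. The summed level of 10 endometrial stromal and fibroblast markers was 4222 to 4453 CPM in Viperin + Insulin libraries, 4138 to 4377 CPM in Viperin libraries, 3660 to 3741 CPM in Insulin libraries and 3282 to 3928 CPM in Control libraries. It was higher in all 6 libraries with the Viperin plasmid than in the 6 without. Of these 10 markers, 2 rose in Viperin against Control (COL1A2 and COL3A1) and 3 in Viperin + Insulin against Insulin (PDGFRB, COL1A2 and COL3A1). Of the other markers, THY1 had 356 to 391 CPM, PDGFRB 49.0 to 70.8 CPM and PDGFRA 16.9 to 22.7 CPM, whereas ACTA2, PGR, DPT and DES had at most 2.36 CPM in any library, and the part of such cells in the results was not tested. Endothelial markers summed to at most 13.9 CPM and leukocyte markers to at most 7.50 CPM in any library. Epithelial markers summed to 2586 to 2698 CPM in Viperin + Insulin, 2452 to 2543 CPM in Viperin, 2688 to 2862 CPM in Insulin and 2590 to 2660 CPM in Control. Mesenchymal markers summed to 1700 to 1749, 1796 to 1846, 1797 to 1913 and 1784 to 2018 CPM in the same order. Neither of these sums was higher with the Viperin plasmid.

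SPARC was the most abundant of the 46 genes per length, at 398 ± 54.3 CPM per kilobase of exon (mean ± SD over the 12 libraries). Length here is that of all annotated exons of a gene merged, not of a single transcript. The order therefore depends on the annotation as well as on expression. SPARC is a collagen-binding, counter-adhesive glycoprotein. LUM, which encodes the collagen-binding proteoglycan lumican, followed at 175 ± 24.8, and FN1, which encodes fibronectin, at 101 ± 12.9 CPM per kilobase. CCDC80, TGFBI and THBS1 lay at 51.7 ± 8.66, 47.3 ± 2.60 and 43.5 ± 2.59 CPM per kilobase. These SDs span all 4 groups and so include differences between treatments, and the order of these neighbours within a group was not compared. Among laminin chains LAMC1, the gamma chain of most laminins, led per kilobase at 29.0 ± 1.64. LAMB1 followed at 14.1 ± 1.11, LAMB2 at 9.09 ± 0.906 and LAMA5 at 8.50 ± 1.04 CPM per kilobase. Merged exons span 18592 bases for LAMB1 and 8446 for LAMC1, and in mean CPM LAMB1 was the higher, at 263 against 245. LAMA2, the chain of muscle laminin, had only 0.0589 ± 0.00898 CPM per kilobase over 26419 bases of merged exons, with a mean of 1.56 CPM. Per kilobase, the most abundant of the microfibril and elastic fibre genes was FBLN2 at 36.4 ± 5.41. That of the nidogen and basement membrane proteoglycan genes was NID1 at 13.7 ± 1.32 CPM per kilobase. In mean CPM, FBN1 (288) lay above FBLN2 (175), and AGRN (134) above NID1 (79.6). Levels varied widely among the 46 genes, and 8 of them, LAMA2, LAMB3, FBLN5, ELN, EMILIN1, MFAP5, BGN and VCAN, averaged under 5 CPM.

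**Figure D1:**
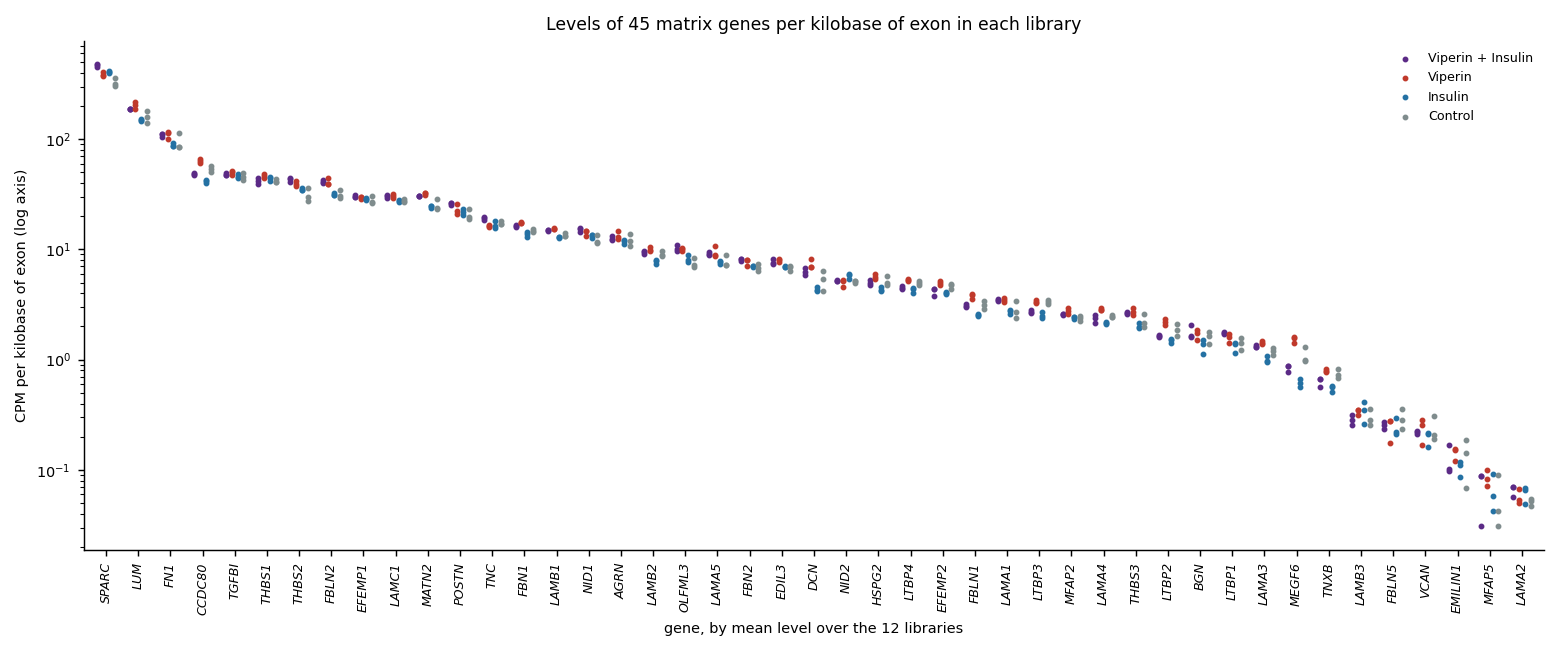
Level of 45 of the 46 genes in each of the 12 libraries, in CPM per kilobase of exon on a log axis, with genes ordered by their mean over the libraries and points coloured by group. SPARC, LUM and FN1 stand at the top and LAMA2 at the bottom, and the spread between genes is far wider than that between groups. ELN, with 0 to 3 counts per library, is left out.

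Some of these values are less certain than the others. ELN, the elastin gene, had 0 to 3 counts per library and 75.0% of its strand-assigned counts lay on the opposite strand, where ELN-AS1 is annotated, so no fold change is given for it. The same share was 51.0% for EMILIN1 and 27.5% for LAMA5, whose exons overlap those of ADRM1, and it was at most 5.08% for every other one of the 46 genes. TNXB has a near-identical partial copy, TNXA, and its counts are uncertain to that extent.

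Viperin OE went with higher expression of many of these genes, whether insulin was present or not. Compared with Control, 16 of the 46 genes rose in Viperin libraries and 0 fell (edgeR's quasi-likelihood test, adjusted p under 0.05 over all genes tested), where 1.25% of all genes tested rose and 1.04% fell. Compared with Insulin, 18 rose in Viperin + Insulin libraries and 0 fell, against 2.09% and 0.99% of all genes tested. The 46 genes were chosen with earlier results of these data known, so these shares describe the list and test nothing. With a stricter filter on low counts (filterByExpr), 15 and 17 of 45 genes rose, against 273 and 437 of all 16508 genes. At an unadjusted p under 0.05, 1 of the 46 was lower in each of these comparisons, and DESeq2 and limma-voom also called 0 lower. At an adjusted p under 0.001, 6 genes were called higher in each, against 43 and 86 of all 23041 genes tested. The log2 fold change was positive for 42 of the 46 genes against Control, with a median of 0.19, and for 43 of 46 against Insulin, with a median of 0.20, whereas the median over all genes tested was 0.00 in both. The 3 libraries with Viperin lay above the 3 without for 18 genes against Control (8.16% of all genes tested) and for 31 genes against Insulin (11.8%). The changes were small, with log2 fold changes of 0.14 to 0.50 among genes called against Control and 0.14 to 0.45 among those called against Insulin. These comparisons contrast different libraries, and 13 genes rose in both, which is 81.2% of the 16 and 72.2% of the 18. They come from 1 fit with a shared estimate of the spread, so they are not fully independent. The overlap over all genes tested was not computed. Without Control library 1, 28 genes were called against Control (4.8% of all genes tested), and without Control library 3 only 9 were (1.36%). Without Control library 2 or Viperin library 3, 10 were called in each case (1.41% and 1.42% of all genes tested). With both Control library 1 and Viperin library 3 left out, 26 were (4.02%). The calls over all genes tested, 2.29% with every library, thus moved the same way. In bulk RNA, more cells that make these transcripts and more RNA per cell cannot be told apart.

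With insulin, more of the same 46 genes were called lower than higher. Compared with Control, 1 gene rose in Insulin libraries and 12 fell, against 2.53% and 2.96% of all genes tested. Compared with Viperin, 2 rose in Viperin + Insulin libraries and 11 fell, against 2.17% and 2.39% of all genes tested. With filterByExpr, 12 and 10 of 45 genes fell, against 691 and 566 of all 16508 genes. The median log2 fold change of the 46 genes was -0.08 in each comparison, against -0.01 and 0.00 over all genes tested. The Insulin libraries lay below the Control libraries for 14 genes (10.5% of all genes tested lay so), and the Viperin + Insulin libraries lay below the Viperin libraries for 16 (10.1%). Fold changes reached -0.81 and -0.85 on the log2 scale, both for MEGF6. Of the genes that fell, 10 were shared by these comparisons, 83.3% of the 12 and 90.9% of the 11. The comparisons contrast different libraries but share the estimate of the spread, and the overlap over all genes tested was not computed. Without Control library 1, 4 genes rose and 9 fell with insulin against Control, as did 627 and 686 of all genes tested. The median of the 46 genes was then 0.01. That median was -0.12 without Control library 2, and the median with insulin in Viperin cells was -0.05 without Viperin library 3. At an adjusted p under 0.001, 5 genes were called with insulin against Control and 8 with insulin against Viperin (1.18% and 1.11% of all genes tested).

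**Figure D2:**
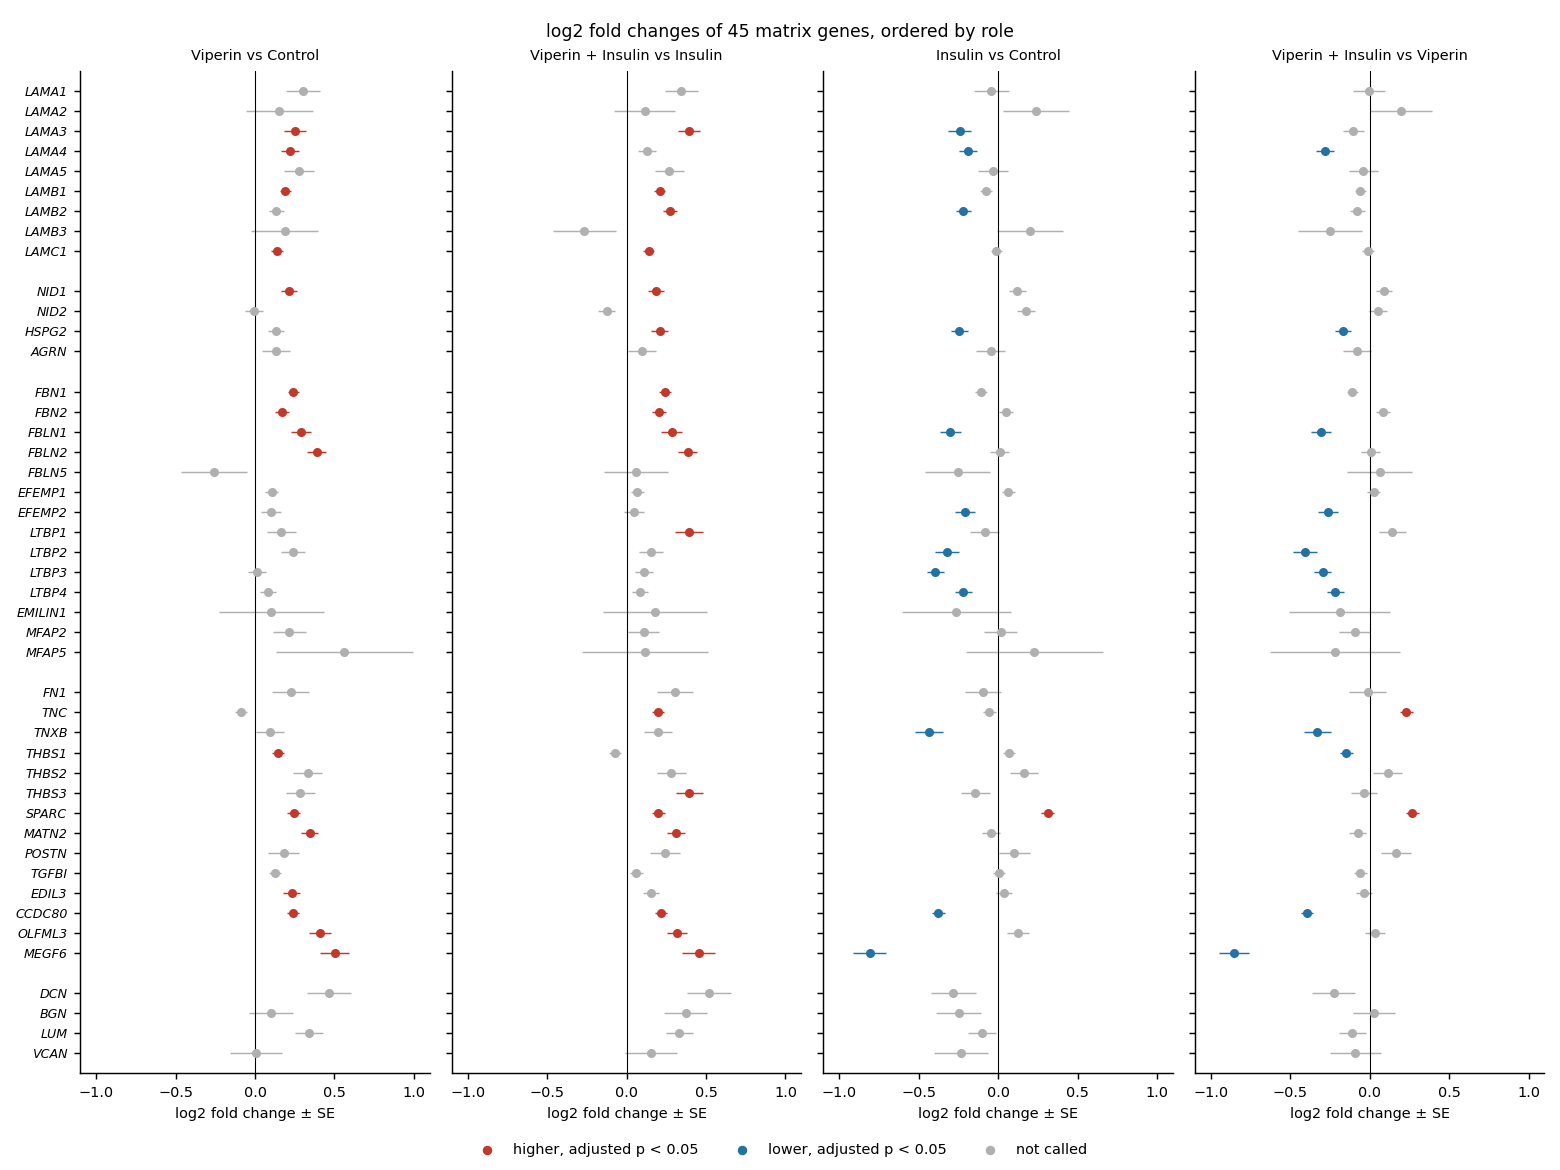
Log2 fold change ± SE (edgeR) of 45 genes, in rows by role, for 4 comparisons in columns, with genes higher or lower at an adjusted p under 0.05 coloured. Both Viperin columns lie mostly right of 0, with 16 and 18 genes called higher and none lower. The insulin columns hold 12 and 11 genes called lower, and SPARC is called higher in each column. ELN is left out.

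Summed over all 46 genes, matrix transcripts took 0.916% ± 0.018 of the assigned read pairs in Viperin + Insulin libraries, 0.912% ± 0.018 in Viperin libraries, 0.774% ± 0.0096 in Insulin libraries and 0.767% ± 0.073 in Control libraries (SD, n = 3 each). The lowest library with Viperin held 0.891% and the highest without it, Control library 1, held 0.850%. FN1 alone made up 0.143% to 0.201% of each library, and without FN1 the shares were 0.725% ± 0.012 in Viperin + Insulin, 0.721% ± 0.0022 in Viperin, 0.623% ± 0.0016 in Insulin and 0.606% ± 0.044 in Control. Mitochondrially encoded genes took 4.28% to 4.52% of counts in Viperin + Insulin libraries, 4.81% to 5.34% in Viperin libraries, 5.14% to 5.18% in Insulin libraries and 5.59% to 6.64% in Control libraries, and their part in the shares was not tested. With RSAD2 and these genes left out of the library sizes, 16 and 18 genes were again called higher with Viperin. The TMM factors were then computed anew and take up most of such a change. These counts could therefore change little and do not bear on the part of the mitochondrial genes.

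**Figure D3:**
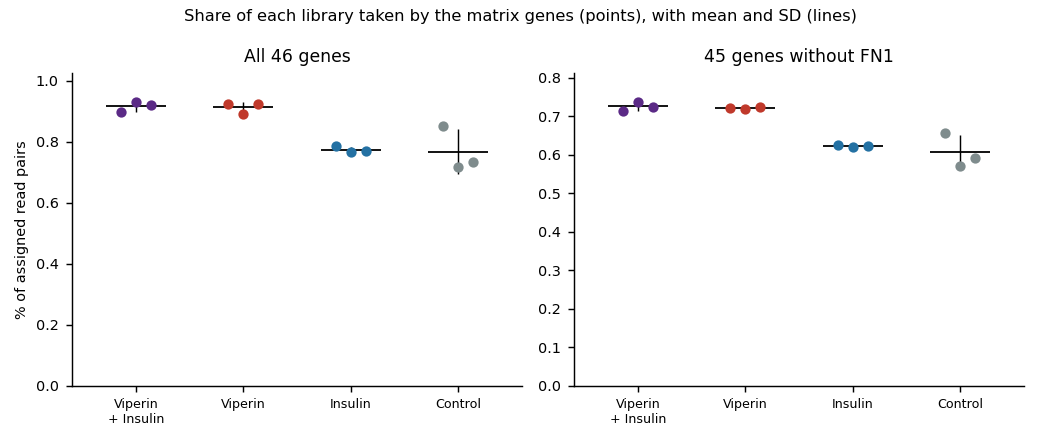
Share of assigned read pairs taken by the 46 genes (left) and by the 45 without FN1 (right) in each library (points), in percent, with the mean and SD of each group (lines). The 6 libraries with Viperin plasmid lie at 0.891% to 0.931% for all 46 genes, above the 6 libraries with empty vector, and Control library 1 lies apart from the other 2 Control libraries.

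Of 9 laminin chains, 4 rose in Viperin libraries against Control (LAMA3, LAMA4, LAMB1 and LAMC1) and 4 in Viperin + Insulin libraries against Insulin (LAMA3, LAMB1, LAMB2 and LAMC1). All 9 log2 fold changes were positive against Control, and 8 of 9 against Insulin. LAMB1, a beta chain of many basement membranes, had 272, 276 and 277 CPM in Viperin + Insulin libraries, 286, 284 and 291 CPM in Viperin libraries, 239.9, 240.2 and 235 CPM in Insulin libraries and 264, 246 and 245 CPM in Control libraries. The 6 Viperin plasmid libraries all lay above the 6 empty vector libraries. LAMB1 rose in Viperin against Control (log2 fold change 0.19 ± 0.04, adjusted p = 5.2e-04) and in Viperin + Insulin against Insulin (log2 fold change 0.21 ± 0.04, adjusted p = 8.3e-05), while insulin gave no call for it with either plasmid. LAMC1 had 249, 258 and 262 CPM in Viperin + Insulin libraries, 256, 248 and 269 CPM in Viperin libraries, 233, 235 and 229 CPM in Insulin libraries and 244, 229 and 229.8 CPM in Control libraries, and rose by 0.14 on the log2 scale in each Viperin comparison (adjusted p = 0.0265 against Control and adjusted p = 0.0167 against Insulin). The LAMC1 call against Control was lost without library 2 or 3 of Control or library 1 or 3 of Viperin (adjusted p = 0.0566 to 0.194), and that against Insulin without library 2 or 3 of Insulin or library 2 or 3 of Viperin + Insulin (adjusted p = 0.0633 to 0.147). The LAMC1 call against Control was also lost with only the compared groups in the fit (adjusted p = 0.122).

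LAMA3, the alpha chain of the laminin of epithelial hemidesmosomes, had 19.0, 18.8 and 19.6 CPM in Viperin + Insulin libraries, 20.6, 19.9 and 21.3 CPM in Viperin libraries, 15.8, 13.9 and 14.1 CPM in Insulin libraries and 18.5, 15.9 and 17.5 CPM in Control libraries. It was lowest in the Insulin libraries, which lay below all 9 others. It rose in Viperin + Insulin against Insulin (log2 fold change 0.39 ± 0.07, adjusted p = 1.5e-04) and in Viperin against Control (log2 fold change 0.25 ± 0.07, adjusted p = 0.0371), and fell with insulin in empty vector cells (log2 fold change -0.24 ± 0.07, adjusted p = 0.0301). With the Viperin plasmid its log2 fold change with insulin was -0.10 (adjusted p = 0.516). The difference between its insulin responses was 0.14 (adjusted p = 0.951). The calls against Control were lost without library 2 or 3 of Control or library 1, 2 or 3 of Viperin (adjusted p = 0.0594 to 0.23) for Viperin, and without library 1 or 3 of Control or library 2 or 3 of Insulin (adjusted p = 0.0832 to 0.181) for insulin. The call for Viperin was also lost with DESeq2 without independent filtering, limma-voom or only the compared groups in the fit (adjusted p = 0.0511 to 0.0843), and that for insulin with DESeq2 without independent filtering, limma-voom, only the compared groups in the fit, GC and length trends removed with or without a replicate block or both Control library 1 and Viperin library 3 left out (adjusted p = 0.0502 to 0.128). LAMB3, the beta chain of that laminin, was scarce, with 1.19 to 1.92 CPM in any library.

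LAMB2, a beta chain of glomerular and synaptic basement membranes, had 64.8, 67.0 and 63.0 CPM in Viperin + Insulin libraries, 66.1, 67.6 and 71.8 CPM in Viperin libraries, 55.5, 51.1 and 54.3 CPM in Insulin libraries and 66.7, 61.5 and 59.3 CPM in Control libraries. Its Insulin libraries lay below the rest, and it fell with insulin in empty vector cells (log2 fold change -0.22 ± 0.05, adjusted p = 0.00122) and rose in Viperin + Insulin against Insulin (log2 fold change 0.27 ± 0.05, adjusted p = 5.6e-05). LAMA4, an alpha chain of vascular and mesenchymal laminins, had 25.9, 30.2 and 28.9 CPM in Viperin + Insulin libraries, 34.1, 33.9 and 35.6 CPM in Viperin libraries, 26.4, 26.0 and 25.5 CPM in Insulin libraries and 29.3, 30.2 and 29.3 CPM in Control libraries. It was highest in the Viperin libraries, which did not overlap with any other group, and fell with insulin in Viperin cells (log2 fold change -0.28 ± 0.06, adjusted p = 4.0e-04). Its calls against Control were nearer the threshold, with log2 fold change 0.22 ± 0.06, adjusted p = 0.0219 for Viperin and log2 fold change -0.19 ± 0.06, adjusted p = 0.038 for Insulin. They were lost without library 3 of Control or library 3 of Viperin (adjusted p = 0.0708 to 0.0921) for Viperin and without library 2 or 3 of Control, library 1, 2 or 3 of Insulin, library 1 of Viperin or library 3 of Viperin + Insulin (adjusted p = 0.0513 to 0.162) for Insulin. The Viperin call was also lost with only the compared groups in the fit or both Control library 1 and Viperin library 3 left out (adjusted p = 0.0519 to 0.0907), and the Insulin call with DESeq2 without independent filtering, limma-voom, low counts kept in, unstranded counts or only the compared groups in the fit (adjusted p = 0.0519 to 0.0728). LAMA1 and LAMA5, alpha chains of embryonic and of adult epithelial laminins, were not called, although their Viperin + Insulin libraries all lay above their Insulin libraries (adjusted p = 0.147 and adjusted p = 0.204).

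Of the nidogens and basement membrane proteoglycans, NID1 and HSPG2 were called. NID1, the link between laminin and type IV collagen, had 84.3, 91.1 and 88.1 CPM in Viperin + Insulin libraries, 84.7, 76.4 and 86.1 CPM in Viperin libraries, 73.9, 79.1 and 78.7 CPM in Insulin libraries and 78.8, 66.7 and 67.8 CPM in Control libraries. It rose in Viperin against Control (log2 fold change 0.21 ± 0.05, adjusted p = 0.019), although a Control library at 78.8 CPM overlapped with a Viperin library at 76.4 CPM, and in Viperin + Insulin against Insulin (log2 fold change 0.18 ± 0.05, adjusted p = 0.0338). The NID1 call against Control was lost without library 2 or 3 of Control or library 1 or 3 of Viperin (adjusted p = 0.0827 to 0.14), and that against Insulin without library 1, 2 or 3 of Insulin or library 2 or 3 of Viperin + Insulin (adjusted p = 0.0754 to 0.204). They were also lost with GC and length trends removed beside a replicate block (adjusted p = 0.0523) against Control and with DESeq2 without independent filtering, filterByExpr or GC and length trends removed with or without a replicate block (adjusted p = 0.052 to 0.124) against Insulin. HSPG2, which encodes perlecan, had 86.6, 95.7 and 90.3 CPM in Viperin + Insulin libraries, 101, 97.5 and 107 CPM in Viperin libraries, 82.1, 77.4 and 76.3 CPM in Insulin libraries and 103, 86.5 and 90.0 CPM in Control libraries. It fell with insulin in empty vector cells (log2 fold change -0.24 ± 0.05, adjusted p = 0.00273) and in Viperin cells (log2 fold change -0.17 ± 0.05, adjusted p = 0.0483), and rose in Viperin + Insulin against Insulin (log2 fold change 0.21 ± 0.05, adjusted p = 0.0165). The HSPG2 call with insulin in Viperin cells was lost without library 3 of Control, library 2 or 3 of Insulin, library 1 or 3 of Viperin or library 1 or 3 of Viperin + Insulin (adjusted p = 0.0504 to 0.224). That of Viperin + Insulin against Insulin was lost without library 2 or 3 of Insulin or library 2 or 3 of Viperin + Insulin (adjusted p = 0.0701 to 0.138). The HSPG2 calls with insulin were also lost with GC and length trends removed with or without a replicate block (adjusted p = 0.0592 to 0.0612) in empty vector cells, where the log2 fold change was then -0.12, and with RLE size factors, DESeq2 without independent filtering, filterByExpr or GC and length trends removed with or without a replicate block (adjusted p = 0.0543 to 0.128) in Viperin cells, where it was -0.10 at the smallest. The log2 fold change of Viperin + Insulin against Insulin was 0.13 with GC and length trends removed. NID2 did not move with Viperin in the same direction as NID1, with log2 fold changes of -0.01 against Control and -0.13 against Insulin (adjusted p = 0.981 and 0.253). AGRN, the heparan sulfate proteoglycan agrin, was not called in any comparison.

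Both fibrillins and the fibulins FBLN1 and FBLN2 rose with Viperin with and without insulin. FBN1, which encodes the main fibrillin of microfibrils, had 293, 301 and 307 CPM in Viperin + Insulin libraries, 322, 323 and 325 CPM in Viperin libraries, 266, 242 and 253 CPM in Insulin libraries and 282, 269.8 and 269 CPM in Control libraries. All 6 libraries with the Viperin plasmid lay above all 6 without, by log2 fold change 0.24 ± 0.04, adjusted p = 1.2e-05 against Control and log2 fold change 0.24 ± 0.04, adjusted p = 6.2e-06 against Insulin, and these calls held at an adjusted p under 0.05 in each of 26 alternatives. FBN2, a fibrillin of development, rose as well (log2 fold change 0.17 ± 0.04, adjusted p = 0.0279 against Control and log2 fold change 0.20 ± 0.04, adjusted p = 0.00344 against Insulin). The FBN2 call against Control was lost without library 2 or 3 of Control or library 1 or 3 of Viperin (adjusted p = 0.138 to 0.206). It was also lost with DESeq2 without independent filtering or only the compared groups in the fit (adjusted p = 0.0608 to 0.0843). FBLN2, a fibulin of basement membranes and elastic fibres, had 197, 206 and 193 CPM in Viperin + Insulin libraries, 188, 191 and 216 CPM in Viperin libraries, 149.6, 151 and 156 CPM in Insulin libraries and 168, 141 and 146 CPM in Control libraries. It rose in both comparisons (log2 fold change 0.39 ± 0.06, adjusted p = 0.00227 against Control and log2 fold change 0.38 ± 0.06, adjusted p = 0.00155 against Insulin), without overlap between plasmids. The FBLN2 call against Control was lost without library 3 of Control (adjusted p = 0.0827). Insulin gave log2 fold changes of 0.01 for FBLN2 with either plasmid.

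FBLN1, another fibulin of basement membranes, changed in all 4 comparisons, upward with Viperin and downward with insulin. It had 22.3, 23.5 and 21.8 CPM in Viperin + Insulin libraries, 26.1, 29.0 and 28.3 CPM in Viperin libraries, 18.4, 18.8 and 18.1 CPM in Insulin libraries and 24.7, 21.1 and 22.6 CPM in Control libraries. With Viperin, it gave log2 fold change 0.29 ± 0.06, adjusted p = 0.0043 against Control and log2 fold change 0.28 ± 0.06, adjusted p = 0.00358 against Insulin. With insulin, it gave log2 fold change -0.30 ± 0.07, adjusted p = 0.00141 in empty vector cells and log2 fold change -0.30 ± 0.06, adjusted p = 5.4e-04 in Viperin cells. The Viperin + Insulin libraries overlapped with the Control libraries. The Viperin calls of FBLN1 were lost without library 2 of Control (adjusted p = 0.0673) against Control and without library 2 of Viperin + Insulin (adjusted p = 0.0574) against Insulin.

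The LTBPs, which hold latent TGF-beta in the matrix or attach to microfibrils, fell with insulin except for LTBP1. LTBP3 had 32.5, 31.3 and 30.7 CPM in Viperin + Insulin libraries, 38.5, 37.6 and 40.1 CPM in Viperin libraries, 31.4, 28.8 and 27.3 CPM in Insulin libraries and 36.8, 38.5 and 39.7 CPM in Control libraries. Its Viperin and Control libraries overlapped and lay above all 6 insulin libraries, with log2 fold change -0.39 ± 0.06, adjusted p = 4.6e-07 in empty vector cells and log2 fold change -0.30 ± 0.05, adjusted p = 1.0e-04 in Viperin cells. LTBP2, which binds microfibrils and not latent TGF-beta, had 15.0, 14.7 and 15.4 CPM in Viperin + Insulin libraries, 18.6, 19.9 and 21.4 CPM in Viperin libraries, 14.0, 13.7 and 12.8 CPM in Insulin libraries and 18.9, 15.0 and 16.8 CPM in Control libraries. It fell with insulin in Viperin cells (log2 fold change -0.41 ± 0.07, adjusted p = 6.9e-05) and in empty vector cells (log2 fold change -0.32 ± 0.08, adjusted p = 0.00435). The LTBP2 call in empty vector cells was lost without library 1 of Control or library 3 of Insulin (adjusted p = 0.0514 to 0.0682). It was also lost with both Control library 1 and Viperin library 3 left out (adjusted p = 0.0572). LTBP4 fell by 0.22 on the log2 scale with either plasmid (adjusted p = 0.00471 in empty vector and adjusted p = 0.00475 in Viperin cells), and its call in empty vector cells was lost without library 2 of Insulin (adjusted p = 0.105). It was also lost with GC and length trends removed with or without a replicate block (adjusted p = 0.11 to 0.116), where the log2 fold change was -0.13. LTBP1 was called only in the comparison of Viperin + Insulin with Insulin, where it rose (log2 fold change 0.39 ± 0.09, adjusted p = 0.00298), and its log2 fold changes with insulin were -0.08 in empty vector and 0.14 in Viperin cells, neither called. Its call was lost without library 1 of Insulin (adjusted p = 0.0558).

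EFEMP2, or fibulin-4, which is needed to assemble elastic fibres, had 23.7, 23.4 and 20.4 CPM in Viperin + Insulin libraries, 28.2, 25.5 and 27.0 CPM in Viperin libraries, 21.1, 22.3 and 21.7 CPM in Insulin libraries and 25.8, 23.6 and 26.0 CPM in Control libraries. It fell with insulin in Viperin cells (log2 fold change -0.26 ± 0.06, adjusted p = 0.00433) and in empty vector cells (log2 fold change -0.21 ± 0.06, adjusted p = 0.037). The EFEMP2 call was lost in Viperin cells without library 1 of Viperin or library 3 of Viperin + Insulin (adjusted p = 0.0538 to 0.132), and in empty vector cells without library 1 or 3 of Control or library 1, 2 or 3 of Insulin (adjusted p = 0.074 to 0.146). In empty vector cells it was also lost with DESeq2 without independent filtering, limma-voom, only the compared groups in the fit, GC and length trends removed with or without a replicate block or both Control library 1 and Viperin library 3 left out (adjusted p = 0.0592 to 0.0814). EFEMP1, MFAP2, FBLN5, EMILIN1 and MFAP5 were not called in any comparison, with 3098 to 5799 counts per library for EFEMP1, 176 to 333 for MFAP2, 39 to 70 for FBLN5, 9 to 25 for EMILIN1 and 4 to 16 for MFAP5.

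The largest called changes of the 46 genes were among the matricellular glycoproteins. Of 14, 7 rose in Viperin against Control, and 7 in Viperin + Insulin against Insulin. MEGF6, a secreted protein of repeated EGF-like domains, had 7.96, 7.98 and 6.94 CPM in Viperin + Insulin libraries, 12.7, 14.6 and 14.1 CPM in Viperin libraries, 5.97, 5.07 and 5.56 CPM in Insulin libraries and 11.7, 8.71 and 8.94 CPM in Control libraries. The Viperin libraries lay above every other library, and the Insulin libraries below. With insulin it fell to 0.572 times its level in empty vector cells (log2 fold change -0.81 ± 0.10, adjusted p = 4.2e-08) and to 0.553 times its level in Viperin cells (log2 fold change -0.85 ± 0.09, adjusted p = 4.4e-10). With Viperin it rose 1.41-fold against Control (log2 fold change 0.50 ± 0.09, adjusted p = 4.9e-04) and 1.37-fold against Insulin (log2 fold change 0.45 ± 0.10, adjusted p = 0.00422). The MEGF6 call against Insulin was lost without library 2 of Insulin or library 1 of Viperin + Insulin (adjusted p = 0.0525 to 0.0719). The difference between its insulin responses was -0.05 ± 0.15 (adjusted p = 0.994).

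CCDC80, a secreted glycoprotein that binds other matrix components, had the same order of groups at far higher counts, 18189 to 33214 per library. It had 615, 628 and 646 CPM in Viperin + Insulin libraries, 825, 865 and 796 CPM in Viperin libraries, 558, 542 and 527 CPM in Insulin libraries and 703, 654 and 752 CPM in Control libraries. It fell with insulin with either plasmid (log2 fold change -0.38 ± 0.04, adjusted p = 1.5e-10 in empty vector cells and log2 fold change -0.40 ± 0.04, adjusted p = 5.4e-11 in Viperin cells). It rose with Viperin with and without insulin (log2 fold change 0.24 ± 0.04, adjusted p = 9.4e-05 against Control and log2 fold change 0.22 ± 0.04, adjusted p = 1.8e-04 against Insulin). The groups did not overlap in any of these 4 pairs.

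SPARC was the one gene of the 46 called higher in all 4 comparisons. It had 2109.6, 2233 and 2166 CPM in Viperin + Insulin libraries, 1877, 1781 and 1741 CPM in Viperin libraries, 1852, 1899 and 1914 CPM in Insulin libraries and 1666, 1420.0 and 1473 CPM in Control libraries. The highest values were in Viperin + Insulin libraries and the lowest in Control libraries, with no overlap between these or with the groups given only 1 treatment, which overlapped with each other. The log2 fold changes were 0.31 ± 0.04 for insulin (adjusted p = 2.3e-06) and 0.24 ± 0.04 for Viperin (adjusted p = 4.6e-04) against Control. They were 0.27 ± 0.04 for insulin in Viperin cells (adjusted p = 2.7e-05) and 0.20 ± 0.04 for Viperin in insulin-treated cells (adjusted p = 0.00285). The Viperin calls of SPARC did not hold once trends with GC content and with length had been removed, with adjusted p of 0.0508 against Control and 0.0882 against Insulin. The call against Control was also lost without library 3 of Control (adjusted p = 0.0599).

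TNC, the adhesion-modulating glycoprotein tenascin-C, was the one gene whose response to insulin came near to differing between plasmids. It had 189.6, 176 and 185 CPM in Viperin + Insulin libraries, 156, 155 and 158 CPM in Viperin libraries, 173, 156 and 151 CPM in Insulin libraries and 172, 164 and 163 CPM in Control libraries. In Viperin cells all 3 libraries with insulin lay above all 3 without (log2 fold change 0.23 ± 0.04, adjusted p = 3.2e-05), whereas in empty vector cells the groups overlapped (log2 fold change -0.05 ± 0.04, adjusted p = 0.55). Viperin + Insulin libraries lay above Insulin libraries (log2 fold change 0.20 ± 0.04, adjusted p = 9.5e-04), and Viperin libraries below Control libraries (log2 fold change -0.09 ± 0.04, adjusted p = 0.303). The difference between the insulin responses of TNC was 0.29 ± 0.06 on the log2 scale with an adjusted p of 0.0532, above the threshold, and this was the smallest p of that test among 23041 genes. It passed the threshold in 12 of 25 alternatives, with adjusted p from 6.9e-04 to 0.321 over all of them. The TNC call of Viperin + Insulin against Insulin was lost without library 3 of Insulin (adjusted p = 0.0591).

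For the difference of the insulin responses as a whole, edgeR called 0 of the 46 genes, with 0% of all genes tested called higher and 0% lower, and DESeq2 and limma-voom called 0 as well. At an unadjusted p under 0.05 edgeR gave 3 of the 46 genes, LAMB2, TNC and THBS1, among 1297 of all genes, and DESeq2 and limma-voom gave 2 each. THBS1, which encodes thrombospondin-1, an adhesive protein that can activate latent TGF-beta, had the opposite sign to TNC. It had 359, 382 and 409 CPM in Viperin + Insulin libraries, 423, 409.9 and 439.9 CPM in Viperin libraries, 383, 419 and 406 CPM in Insulin libraries and 373, 378 and 400.0 CPM in Control libraries. It rose in Viperin against Control (log2 fold change 0.14 ± 0.04, adjusted p = 0.0365) and fell with insulin in Viperin cells (log2 fold change -0.15 ± 0.04, adjusted p = 0.0172), and its difference of -0.22 ± 0.06 was not called (adjusted p = 0.233). The THBS1 call against Control was lost without library 1 or 2 of Control, library 3 of Insulin or library 1 or 3 of Viperin (adjusted p = 0.0542 to 0.187), and that with insulin in Viperin cells without library 3 of Viperin or library 1 or 2 of Viperin + Insulin (adjusted p = 0.055 to 0.228). The call against Control was also lost with DESeq2 without independent filtering, limma-voom, edgeR run without its robust option, filterByExpr, only the compared groups in the fit, GC and length trends removed or both Control library 1 and Viperin library 3 left out (adjusted p = 0.0502 to 0.279), and that with insulin in Viperin cells with GC and length trends removed or both Control library 1 and Viperin library 3 left out (adjusted p = 0.0681 to 0.0904). Without library 1, 2 or 3 of Control, library 1 of Insulin, library 3 of Viperin or library 2 of Viperin + Insulin, TNC was called and was the only one of the 46 called for the difference, with an adjusted p of 6.9e-04 to 0.0289.

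**Figure D4:**
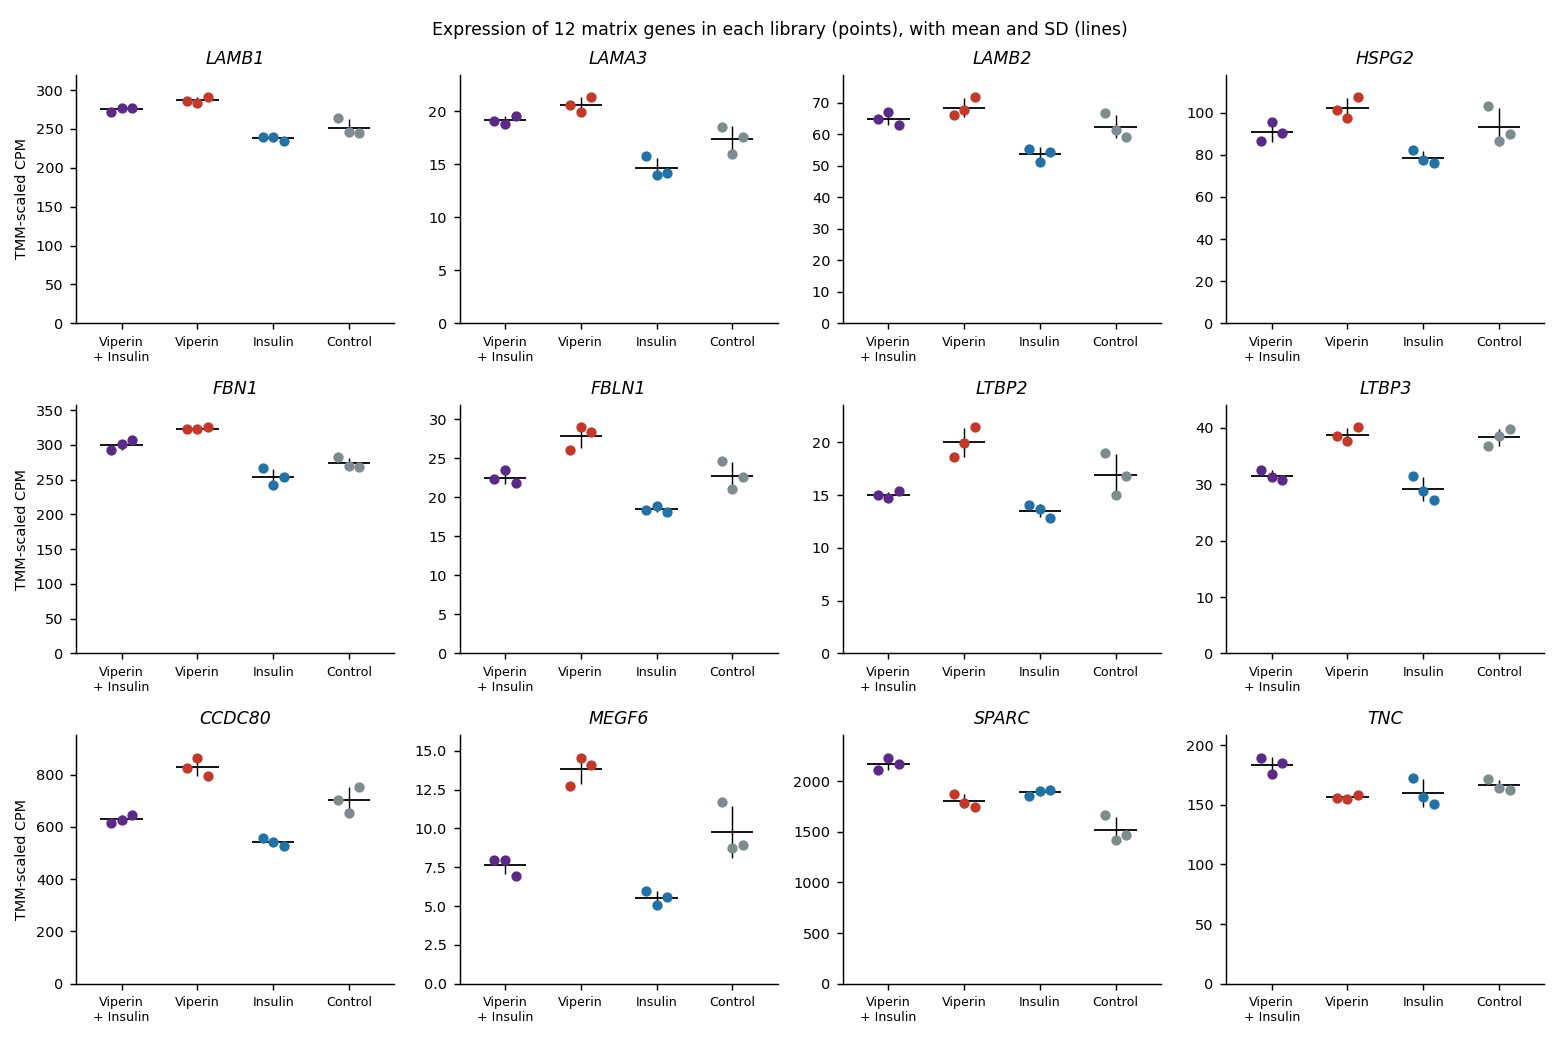
TMM-scaled CPM of 12 genes in each library (points), with the mean and SD of each group (lines) on axes from 0. LAMB1 and FBN1 are higher in all 6 Viperin plasmid libraries, LTBP3 is lower in all 6 libraries with insulin, CCDC80 and MEGF6 are highest in Viperin and lowest in Insulin libraries, and SPARC and TNC are highest in Viperin + Insulin libraries.

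OLFML3, a secreted olfactomedin-like glycoprotein, had 30.6, 28.4 and 27.5 CPM in Viperin + Insulin libraries, 27.1, 28.5 and 28.8 CPM in Viperin libraries, 25.2, 22.4 and 21.7 CPM in Insulin libraries and 20.2, 19.4 and 23.8 CPM in Control libraries. It rose with Viperin against Control (log2 fold change 0.41 ± 0.07, adjusted p = 1.0e-04) and against Insulin (log2 fold change 0.32 ± 0.06, adjusted p = 0.00105). MATN2, a filament-forming matrilin, had 210.3, 211 and 209.6 CPM in Viperin + Insulin libraries, 226, 224 and 215 CPM in Viperin libraries, 173, 165 and 171 CPM in Insulin libraries and 199, 162 and 163 CPM in Control libraries. Its 6 Viperin plasmid libraries lay above the 6 others. It rose by log2 fold change 0.34 ± 0.06, adjusted p = 0.00198 against Control and log2 fold change 0.31 ± 0.06, adjusted p = 0.00286 against Insulin. EDIL3, an integrin-binding protein, rose against Control (log2 fold change 0.23 ± 0.05, adjusted p = 0.00497), a call lost without library 2 of Control (adjusted p = 0.0797), and its log2 fold change against Insulin was 0.16 (adjusted p = 0.0731). THBS3, a pentameric thrombospondin, rose against Insulin (log2 fold change 0.39 ± 0.09, adjusted p = 0.0026) and had a log2 fold change of 0.29 against Control (adjusted p = 0.0671). The exons of THBS3 overlap those of THBS3-AS1 on the opposite strand, and the THBS3 call was lost with unstranded counts (adjusted p = 0.0831).

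TNXB, or tenascin-X, which stabilizes collagen fibrils, fell with insulin in empty vector cells (log2 fold change -0.43 ± 0.09, adjusted p = 6.1e-04) and in Viperin cells (log2 fold change -0.33 ± 0.08, adjusted p = 0.00925), with the uncertainty about TNXA given above. The call in Viperin cells was lost without library 2 of Viperin + Insulin (adjusted p = 0.11). FN1 was not called, and Control library 1 lay apart from the other Control libraries. It had 1805, 1909 and 1933 CPM in Viperin + Insulin libraries, 2015, 1713 and 1966 CPM in Viperin libraries, 1604, 1479 and 1485 CPM in Insulin libraries and 1951, 1457 and 1469 CPM in Control libraries. Its log2 fold change with Viperin was 0.22 against Control (adjusted p = 0.467) and 0.31 against Insulin (adjusted p = 0.262), although its Viperin + Insulin libraries lay above all Insulin libraries. THBS2, POSTN and TGFBI, a thrombospondin and a pair of fasciclin-domain proteins, were not called, with log2 fold changes with Viperin of 0.06 to 0.33.

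Interstitial proteoglycans gave no call in any comparison, yet their values leaned the same way. LUM had 506, 504 and 497 CPM in Viperin + Insulin libraries, 539, 581 and 503 CPM in Viperin libraries, 394, 395 and 408 CPM in Insulin libraries and 483, 372 and 428 CPM in Control libraries. The Viperin libraries lay above the Control libraries and the Viperin + Insulin libraries above the Insulin libraries, with log2 fold changes of 0.34 ± 0.09 and 0.33 ± 0.09 (edgeR, adjusted p = 0.106 and 0.099). DCN, which encodes decorin, had 80.8, 87.5 and 75.7 CPM in Viperin + Insulin libraries, 89.2, 106 and 89.6 CPM in Viperin libraries, 56.0, 54.3 and 59.5 CPM in Insulin libraries and 82.4, 54.8 and 69.9 CPM in Control libraries. Its groups did not overlap in these comparisons either (log2 fold change 0.46 ± 0.14, adjusted p = 0.163 against Control and log2 fold change 0.52 ± 0.14, adjusted p = 0.104 against Insulin). Control library 1 was the highest of the Control libraries for both genes. BGN and VCAN, which encode biglycan and versican, had only 100 to 184 and 87 to 166 counts per library.

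Promoter sequences are shown for 4 genes on which these results turn, MEGF6 for its opposite changes, SPARC for its rise in all comparisons, TNC for its difference and FBN1 for its rise with Viperin. Each is the 250 bases before the start listed by RefSeq (GRCh38.p14), on the minus strand, and capitals mark matches to the motifs searched on both strands. The positions are chr1:3611509-3611758 for MEGF6, chr5:151686916-151687165 for SPARC, chr9:115118158-115118407 for TNC and chr15:48644971-48645220 for FBN1.
MEGF6: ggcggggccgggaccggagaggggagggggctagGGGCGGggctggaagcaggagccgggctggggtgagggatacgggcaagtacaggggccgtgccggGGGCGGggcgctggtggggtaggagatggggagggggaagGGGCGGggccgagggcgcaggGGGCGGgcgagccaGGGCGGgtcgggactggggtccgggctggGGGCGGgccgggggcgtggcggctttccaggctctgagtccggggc
SPARC: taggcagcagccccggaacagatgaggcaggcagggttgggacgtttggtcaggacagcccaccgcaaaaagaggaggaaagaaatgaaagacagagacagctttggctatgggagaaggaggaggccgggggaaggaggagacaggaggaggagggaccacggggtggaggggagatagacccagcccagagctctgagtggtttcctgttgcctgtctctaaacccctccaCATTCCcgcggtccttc
TNC: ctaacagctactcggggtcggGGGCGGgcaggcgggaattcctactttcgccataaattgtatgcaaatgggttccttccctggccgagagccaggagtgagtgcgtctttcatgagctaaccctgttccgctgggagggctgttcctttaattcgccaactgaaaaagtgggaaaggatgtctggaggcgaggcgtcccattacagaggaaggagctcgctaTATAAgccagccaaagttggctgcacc
FBN1: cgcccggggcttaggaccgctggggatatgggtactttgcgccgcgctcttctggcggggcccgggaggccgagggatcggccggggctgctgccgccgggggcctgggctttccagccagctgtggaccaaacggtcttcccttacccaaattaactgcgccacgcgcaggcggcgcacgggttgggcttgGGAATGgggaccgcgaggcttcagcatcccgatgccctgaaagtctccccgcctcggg
The motifs searched were the GC box, spelled GGGCGG, and the TATA box, spelled TATAA. The AP-1 site was searched as TGANTCA and the TEAD site as GGAATG. The FOXO site was searched as GTAAACA, and matches of 1 motif to another did not share letters. MEGF6 had 6 GC boxes and 79.6% GC, TNC had a GC box and a TATA box that begins 27 bases before the start, and SPARC and FBN1 each had 1 TEAD match. Of the 46 genes, 37 had a promoter in the table. A GC box was in 27 of the 37 promoters (73.0%) and in 42.3% of 27305 promoters of the same length, and the median GC content was 68.0% in the 37 and 58.0% in all. A TATA box was in 9 (24.3%, against 19.6%), a TEAD site in 7 (18.9%, against 11.9%), an AP-1 site in 3 (8.11%, against 6.60%) and a FOXO site in 0 (against 2.98%). These letters describe the windows and say nothing about binding in 12Z cells.

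The 46 transcripts were long. Their canonical transcripts had a median of 5671 bases and 23 exons, against 3324 bases and 9 exons over the protein-coding genes tested, and a median GC content of 51.5%, against 48.7%. With trends on GC and canonical transcript length removed from each library, 14 and 17 genes were called higher with Viperin against Control and Insulin. Over all genes 2.85% and 3.89% were then called, in place of 2.29% and 3.08%. With insulin, 2 rose and 8 fell in empty vector cells, and 2 rose and 9 fell in Viperin cells. Over all genes 6.61% and 6.04% were called, in place of 5.49% and 4.56%. The median log2 fold change of the 46 genes with insulin was then -0.05 in each, in place of -0.08.

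Genes that work with this matrix are given by list. Of 126 other matrix, receptor, crosslinking, glycosaminoglycan and TGF-beta genes in 7 lists, 109 were tested. These lists, too, were written with earlier results of these data known, so their shares are descriptive. In Viperin against Control 5 rose (4.59%, against 1.25% of all genes tested) and 0 fell, and in Viperin + Insulin against Insulin 10 rose (9.17%, against 2.09%) and 0 fell. Of 10 other laminin and basement membrane genes tested, PXDN rose in both of these comparisons, and NTN4, a netrin of basement membranes, and TINAGL1 rose against Insulin. PXDN, the peroxidase that crosslinks type IV collagen, gave log2 fold change 0.23 ± 0.04, adjusted p = 1.1e-04 against Control and log2 fold change 0.25 ± 0.04, adjusted p = 1.2e-05 against Insulin, and both calls held in each of 26 alternatives. Of 10 laminin receptor genes, ITGB1 rose against Control and ITGA7, ITGB1 and BCAM rose against Insulin. ITGB1, the integrin beta chain shared by most laminin receptors, gave log2 fold change 0.18 ± 0.03, adjusted p = 3.4e-04 against Control and log2 fold change 0.13 ± 0.03, adjusted p = 0.0106 against Insulin, where the call was lost without library 2 or 3 of Insulin or library 2 or 3 of Viperin + Insulin (adjusted p = 0.0562 to 0.0971). The NTN4 call was lost without library 2 of Insulin (adjusted p = 0.0686). The TINAGL1 call was lost without library 2 or 3 of Insulin or library 1 or 3 of Viperin + Insulin (adjusted p = 0.0565 to 0.158). The ITGA7 call was lost without library 2 of Insulin or library 1 of Viperin + Insulin (adjusted p = 0.092 to 0.0936). The BCAM call held in 12 of 26 alternatives. It was lost without library 1 or 2 of Insulin, library 1 or 3 of Viperin or library 1 or 2 of Viperin + Insulin (adjusted p = 0.0564 to 0.232), and with RLE size factors, RSAD2 and mitochondrial genes left out of library sizes, DESeq2 without independent filtering, DESeq2 with independent filtering, limma-voom, edgeR run without its robust option, filterByExpr or unstranded counts (adjusted p = 0.0524 to 0.116). Without Control library 1, 18 of these genes were called against Control and 16 against Insulin (4.8% and 4.37% of all genes tested). Against Control 3 were called without Control library 2, Viperin library 2 or Viperin library 3 (1.41%, 1.34% and 1.42% of all genes tested). Against Insulin 3 were called without Insulin library 2 or Viperin + Insulin library 1 (1.21% and 1.41% of all genes tested). Without Viperin + Insulin library 2, 5 were (1.66%), and without Insulin library 3, 6 were (1.26%).

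With insulin, 4 of these 109 genes rose (3.67%, against 2.53% of all genes tested) and 8 fell (7.34%, against 2.96%) in empty vector cells. In Viperin cells 1 rose (0.917%, against 2.17%) and 7 fell (6.42%, against 2.39%). ITGB4, the integrin beta chain of hemidesmosomes, fell in empty vector cells (log2 fold change -0.33 ± 0.06, adjusted p = 4.1e-04) and in Viperin cells (log2 fold change -0.35 ± 0.06, adjusted p = 8.3e-05), in each of 26 alternatives. BCAM, a laminin receptor, fell in empty vector cells (log2 fold change -0.32 ± 0.07, adjusted p = 7.4e-04). Of 26 other matricellular genes tested, OLFML2A, SRPX2 and MFGE8 fell with either plasmid, by 0.16 to 0.49 on the log2 scale. The MFGE8 call in Viperin cells was lost without library 3 of Viperin + Insulin (adjusted p = 0.059). PODN, which encodes the small leucine-rich proteoglycan podocan, fell with either plasmid (log2 fold change -0.64 ± 0.16, adjusted p = 0.00694 in empty vector cells and log2 fold change -0.52 ± 0.14, adjusted p = 0.0153 in Viperin cells). The PODN calls were lost without library 2 of Insulin (adjusted p = 0.114) in empty vector cells and without library 2 of Viperin or library 1 or 3 of Viperin + Insulin (adjusted p = 0.0966 to 0.189) in Viperin cells. In Viperin cells it was also lost with DESeq2 without independent filtering (adjusted p = 0.0656). Of 12 elastic fibre assembly and crosslinking genes tested, LOXL2, a lysyl oxidase, rose with either plasmid (log2 fold change 0.14 ± 0.04, adjusted p = 0.0447 in empty vector cells and log2 fold change 0.22 ± 0.04, adjusted p = 0.00115 in Viperin cells). The LOXL2 call in empty vector cells was lost without library 2 or 3 of Control or library 1, 2 or 3 of Insulin (adjusted p = 0.0556 to 0.265). It was also lost with DESeq2 without independent filtering (adjusted p = 0.0534). Of 24 glycosaminoglycan synthesis genes tested, CHSY1, a chondroitin synthase, was the only one called in any of the 4 comparisons. It rose with insulin in empty vector cells (log2 fold change 0.15 ± 0.04, adjusted p = 0.0129), a call lost without library 2 or 3 of Insulin (adjusted p = 0.0796 to 0.0855). Without Insulin library 2, 7 of these genes were called with insulin in empty vector cells (2.7% of all genes tested). In Viperin cells 5 were called without Viperin + Insulin library 3 (3%), 14 without Control library 1 (5.58%) and 13 without Control library 3 (6.04%).

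Among 13 TGF-beta ligand and activation genes, TGFBR2, a receptor for TGF-beta, rose with Viperin against Control (log2 fold change 0.17 ± 0.04, adjusted p = 0.0236), a call lost without library 2 of Control or library 3 of Viperin (adjusted p = 0.112 to 0.127). It was also lost with limma-voom or only the compared groups in the fit (adjusted p = 0.0539 to 0.0678). FURIN, a protease that processes TGF-beta, fell with insulin in empty vector cells (adjusted p = 8.2e-05) and in Viperin cells (adjusted p = 0.0206), where the call was lost without library 3 of Viperin or library 1, 2 or 3 of Viperin + Insulin (adjusted p = 0.0609 to 0.165). It was also lost with both Control library 1 and Viperin library 3 left out (adjusted p = 0.103). For the difference of the insulin responses 0 of the 109 genes were called.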

How the data were processed

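Polyadenylated RNA from the 12 libraries was sequenced as read pairs, and the authors trimmed the reads (Trim Galore, cutadapt), ran FastQC as a quality check, and aligned and counted them with STAR on hg38. Their versions were not given in the sources used here. As deposited, each library has raw read pair counts by gene for both strands together and for the forward and reverse strand. The reverse-strand counts were used and held 94.1% to 94.3% of the strand-assigned counts. The 4 summary lines of each file (unmapped, multimapped, no feature, ambiguous) were left out of library sizes. A GENCODE release for mouse is named in the methods, but the IDs are human, and 60357 of 60617 matched GENCODE 44, from which names, lengths and GC content were taken.

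Counts were tested with edgeR 4.0.16 (TMM, robust quasi-likelihood, 4 group means in 1 fit, mean of 1 count or more, Benjamini-Hochberg over all genes tested, adjusted p under 0.05) in R 4.3.3, and log2 fold changes used a prior count of 2. The methods name DESeq2 and independent hypothesis weighting at 0.001. The weighting was not run, and counts at 0.001 are given. The SE is the fold change divided by the square root of the F statistic. Alternatives were DESeq2 1.42.0 with and without independent filtering, limma-voom (limma 3.58.1), other size factors, filters, thresholds and strand setting, only the groups compared, GC and length offsets, a replicate block, and each library left out. A group left with fewer libraries was taken to vary like the others. The fits were tested on simulated data. Tables and plots used Python 3.11.15 (matplotlib 3.10.9, pandas 2.3.3, numpy 2.4.6).

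The members and lists were chosen with earlier results of these data known. Values per library are given for up to 12 called genes per comparison and the most abundant gene per kilobase of each role. Values are also given for up to 3 called genes of each partner list and comparison. Alternatives for the partner genes were chosen after seeing the data. The p-values set each difference against the spread between experiments, of which each group had 3. In the main fit this spread was estimated over all groups together, so a call can depend on libraries outside the groups compared. Counts have no molecular identifiers.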

Additional observations from a re-analysis of the deposited data

How the results depend on the processing

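The 60 called values of single genes kept their direction in every alternative, 0 reversed, and 31 also kept their call in all of them. They had been picked by their calls in the same libraries, so a reversal was unlikely from the start. With a stricter threshold, Viperin against Control called 10 genes at an adjusted p under 0.01 (0.864% of all genes tested) and 6 under 0.001 (0.304%). At 0.001 Insulin against Control called 5 (1.18%), Viperin + Insulin against Viperin 8 (1.11%) and Viperin + Insulin against Insulin 6 (0.473%). With Control library 1 and Viperin library 3 both left out, Viperin against Control called 26 (4.02% of all genes tested). Leaving out each library in turn gave 9 to 28 genes for Viperin against Control, 14 to 25 for Viperin + Insulin against Insulin, 9 to 14 for Insulin against Control, 11 to 15 for Viperin + Insulin against Viperin and 0 to 1 for the difference of the insulin responses, with fewer samples in each of these fits. Over all genes these fits called, in this order, 1.34% to 4.8%, 1.21% to 4.52%, 2.7% to 6.06%, 2.75% to 6.04% and 0% to 0.0998%. The other alternatives gave 11 to 26, 17 to 26, 10 to 15, 11 to 16 and 0 to 2 genes for these comparisons in this order. Over all genes they called 1.09% to 4.02%, 2.51% to 7.64%, 3.99% to 8.19%, 3.23% to 6.73% and 0% to 0.135%. For the difference, 2 genes were called with no filter on low counts, 1 with unstranded counts, 1 with GC content and length trends removed and 1 without both libraries named above, and the cause was not tested. No source says that libraries with 1 replicate number belong together, and the deviations of same-numbered libraries correlated at -0.111 to 0.087. Not every library correlated best with its own number. With the replicate number as a block 16, 18, 13, 13 and 1 genes were called in the same order, and the block together with the GC and length trends gave 2 for the difference. Without Control library 1, the genes called with insulin in empty vector cells were 4 higher and 9 lower, in place of 1 and 12. Over all genes tested 627 were higher and 686 lower, in place of 583 and 682. For the partner genes, whose alternatives were chosen after seeing the data, all 35 called values kept their direction and 13 kept their call in every alternative. These values, too, had been picked by their calls. Counts of 0 to 3 for ELN, 9 to 25 for EMILIN1 and 4 to 16 for MFAP5 limit what could be detected for these genes.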
